A study of Mus musculus with 4 samples.

Results

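NFIC occupancy at the genes of the proteasome and of the ubiquitin-conjugating enzymes was examined in mouse pancreas. Members were the peaks of an NFIC ChIP-Seq peak list that the authors' annotation names for a gene of either family. Names beginning with *Psma* to *Psmg* and a digit made the proteasome family, and names beginning with *Ube2* the Ube2 family. Below, the nearest gene of a peak is the gene so named. In the RefSeq annotation, a transcription start of another protein-coding gene lay closer to the peaks of *Psmg3*, *Ube2k* and *Ube2u*. The same held for the *Psmg4* peaks at 50093 and 60265 bp. The rule found 56 of 15824 peaks, at 40 of 9086 named genes, of which 27 peaks at 19 genes belong to the proteasome family and 29 peaks at 21 genes to the Ube2 family. The rule used gene names only, so position, score and sequence of the peaks were free to differ.

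The list was made from 3 NFIC ChIP libraries of pancreas and accompanied by 1 library of input DNA from the same tissue. All 4 libraries came from wild-type mice of mixed strain background, aged 8 to 12 weeks, and the antibody was raised against NFIC (Bethyl). NFIC belongs to the nuclear factor I family, whose members bind as dimers to a palindromic site and, more weakly, to single arms of it. The deposited list is merged: it has 0 columns with values per library. There is therefore no spread between replicates, the depth per library is unknown, and the intervals below, all at 95%, cover only the error of counting peaks or genes. Pancreas was used whole, so a peak cannot be assigned to acinar, ductal, endocrine or other cells.

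The ubiquitin-proteasome system removes proteins in steps. An E1 enzyme activates ubiquitin, an E2 (most of them named Ube2) accepts it, and an E3 ligase passes it to the substrate, which the proteasome then unfolds and cuts. The proteasome is a barrel of alpha (*Psma*) and beta (*Psmb*) rings capped by a regulatory particle of ATPases (*Psmc*) and other subunits (*Psmd*), or by activators (*Psme*), and its assembly needs chaperones (*Psmg*). Cells that secrete large amounts of protein, such as pancreatic acinar cells, depend on it to destroy misfolded proteins exported from the endoplasmic reticulum (ER).

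The highest-scoring peak in the promoter window of each family is shown first, over its whole 173 bp, from the plus strand of GRCm38 (mm10). The promoter window runs from -1000 bp to the transcription start site (TSS). Capitals mark single arms of the NFI site, TTGGC on either strand. The *Psmd6* peak (chr14:14120952-14121124) holds none and the *Ube2j2* peak (chr4:155943670-155943842) holds 1. Both contain the ETS word CCGGAAG on one strand or the other.
Psmd6: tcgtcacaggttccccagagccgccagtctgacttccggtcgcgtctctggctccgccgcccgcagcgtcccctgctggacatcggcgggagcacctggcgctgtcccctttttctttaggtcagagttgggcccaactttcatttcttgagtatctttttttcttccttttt
Ube2j2: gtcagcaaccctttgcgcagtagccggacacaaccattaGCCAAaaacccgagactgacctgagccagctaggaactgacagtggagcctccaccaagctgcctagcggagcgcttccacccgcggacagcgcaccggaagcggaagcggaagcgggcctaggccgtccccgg

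No peak of either family in the promoter window held a full NFI site, which is TTGGC, 5 bases of any kind and GCCAA with at most 1 mismatch. The share among all promoter-window peaks was 5.10%, well inside the interval for 0 of 14, which reaches 21.5%. Outside the window, 10 member peaks held an exact core site, the same palindrome without its outermost base on each side. These were chosen after their values were seen and are shown with 10 bp on either side and the site in capitals, each named by its position on mm10. By this rule the arms are the same in all 10, while the 5 bases between them are free. The peaks of *Psmd9*, *Psmd12* and *Psma1* at -25417 bp were annotated to repeat elements (MLT1D, B2_Mm2 and L4_A_Mam).
Psma1, chr7:114292796-114292808, plus strand: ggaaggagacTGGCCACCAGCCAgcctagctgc
Psma1, chr7:114301524-114301536, plus strand: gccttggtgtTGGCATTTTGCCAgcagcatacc
Psma1, chr7:114311381-114311393, plus strand: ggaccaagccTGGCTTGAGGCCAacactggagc
Psmd12, chr11:107512163-107512175, plus strand: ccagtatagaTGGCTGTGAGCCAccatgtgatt
Psmd9, chr5:123235944-123235956, plus strand: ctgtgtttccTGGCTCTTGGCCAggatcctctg
Psme1, chr14:55578839-55578851, plus strand: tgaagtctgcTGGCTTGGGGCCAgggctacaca
Ube2e1, chr14:18325066-18325078, plus strand: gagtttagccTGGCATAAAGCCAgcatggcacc
Ube2e3, chr2:78877354-78877366, plus strand: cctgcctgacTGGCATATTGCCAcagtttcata
Ube2g1, chr11:72582265-72582277, plus strand: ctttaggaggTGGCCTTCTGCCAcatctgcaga
Ube2v1, chr2:167629071-167629083, plus strand: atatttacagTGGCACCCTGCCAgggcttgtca

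Entire peaks are given for the *Psme1* site, which lies 345 bp into the gene (chr14:55578753-55578925), and for the *Psmd9* site, which belongs to one of the top-scoring proteasome peaks (chr5:123235861-123236033). In both the core site lies within 6 bp of the peak centre.
Psme1: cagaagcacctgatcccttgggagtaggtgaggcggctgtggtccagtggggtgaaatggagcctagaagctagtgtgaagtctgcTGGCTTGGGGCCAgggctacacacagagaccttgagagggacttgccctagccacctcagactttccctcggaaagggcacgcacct
Psmd9: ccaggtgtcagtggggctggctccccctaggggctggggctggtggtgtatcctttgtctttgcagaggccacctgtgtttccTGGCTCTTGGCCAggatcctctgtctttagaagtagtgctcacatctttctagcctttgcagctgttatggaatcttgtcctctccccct

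Both families had similar shares of promoter peaks. In the proteasome family 7 of 27 peaks (25.9%, 13.2 to 44.7) lay in the promoter window, and in the Ube2 family 7 of 29 (24.1%, 12.2 to 42.1). Across the whole list the share was 15.4% (2433 of 15824 peaks), which lies inside both intervals. For the families together it was 14 of 56 peaks (25%, 15.5 to 37.7), and the list share lies just below that interval. Counted by gene, the joint share was 14 of 40 (35%, 22.1 to 50.5), an interval that includes the 26.2% of all bound genes. The difference, Ube2 minus proteasome, was -1.79 percentage points (-24.0 to 20.2), so the list cannot tell a difference of up to about that size from none. Counted by gene, 7 of 19 bound proteasome genes (36.8%, 19.1 to 59.0) and 7 of 21 bound Ube2 genes (33.3%, 17.2 to 54.6) had a promoter peak, beside 26.2% of all bound genes, and the difference was -3.51 percentage points (-30.9 to 24.2). With the window extended to 1000 bp downstream of the TSS, the shares were 33.3% and 41.4%, beside 27.4% of all peaks, and the difference turned to 8.05 percentage points (-16.6 to 31.2). The sign of the difference in promoter share, by peak and by gene, was opposite in 4 of 10 alternatives each, so the families had no stable order.

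**Figure D1:**
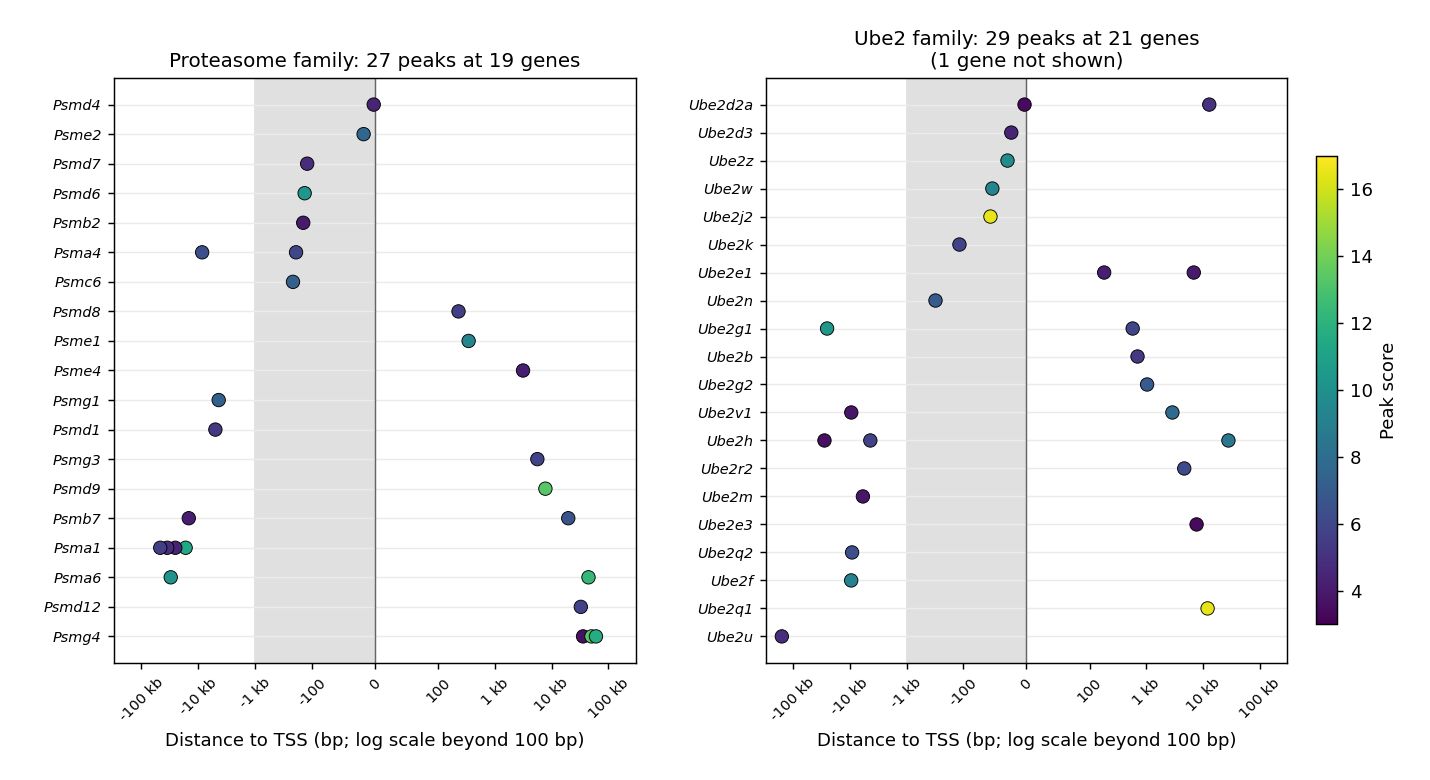
Each point is a peak, placed by its signed distance to the TSS (x axis, bp, log scale beyond 100 bp, negative upstream) on the row of its nearest gene, and coloured by peak score; the grey band is the promoter window, and 1 Ube2 gene is not shown. Each family has 7 genes with a point in the band, and *Psma1* and *Psmg4* carry clusters of distant peaks.

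In the proteasome family, the promoter peaks belonged to subunits of both rings of the barrel, of the regulatory particle and of an activator. In the alpha ring, which gates the entry to the barrel, *Psma4* had a peak with a score of 5.98 at -190 bp (chr9:54950583-54950755). In the beta ring, *Psmb2* had one with a score of 3.98 at -142 bp (chr4:126677415-126677587). Of the ATPases, which unfold the substrate, only *Psmc6* was the nearest gene of a peak, which had a score of 7.17 at -215 bp (chr14:45329523-45329695). Among the other regulatory subunits, *Psmd6* had the highest promoter score of the family, 10.4 at -134 bp. *Psmd7*, the partner of the deubiquitinase of the lid, scored 4.78 at -121 bp (chr8:107588517-107588689). *Psmd4*, a receptor for ubiquitin chains, scored 4.38 at -2 bp (chr3:95042530-95042702), which was the nearest peak of the family. Of the activators, *Psme2* scored 7.57 at -18 bp (chr14:55590953-55591125). *Psme1*, its partner in the interferon-inducible PA28 cap, was also bound, and its peak scored 9.36 at 345 bp inside the gene. The peaks of *Psma4* and *Psme2* also lay near another TSS, 285 bp from that of *AY074887* and 674 bp from that of *Rnf31*. The 7 promoter scores had a median of 5.98, beside 6.57 for all promoter-window peaks of the list.

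In the Ube2 family, 2 of the 7 promoter peaks were at genes linked to the ER. *Ube2j2* encodes an E2 anchored in the ER membrane that acts in the degradation of ER proteins, and its peak at -57 bp had a score of 16.5, shared with *Ube2q1* as the highest of both families. *Ube2k*, which builds chains for degradation, had a peak with a score of 5.78 at -117 bp (chr5:65537042-65537214). That peak lay closer to a TSS of the neighbouring gene *Smim14*, at 21 bp. *Ube2z*, an E2 loaded by the E1 enzyme UBA6, scored 9.76 at -30 bp (chr11:96065308-96065480). *Ube2w*, which attaches ubiquitin to the amino terminus of proteins, scored 9.36 at -54 bp (chr1:16619306-16619478). *Ube2n*, which builds non-degradative chains in DNA repair and inflammatory signalling, scored 6.97 at -309 bp (chr10:95514767-95514939). The general-purpose E2 genes *Ube2d3* and *Ube2d2a* had the weakest promoter peaks, with scores of 4.38 at -24 bp (chr3:135438122-135438294) and 3.39 at -3 bp (chr18:35771470-35771642). The latter is the lowest score in the whole list, and the nearest peak of the family. The promoter peaks of *Ube2d3* and *Ube2n* also lay near the TSS of another gene, at 457 and 597 bp. The median of the 7 scores was 6.97.

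At the level of the annotation, a peak was more often assigned to Ube2 genes than to proteasome genes, but the interval of the difference included 0. Of the annotated protein-coding genes, 19 of 51 in the proteasome family (37.3%, 25.3 to 51.0) and 21 of 37 in the Ube2 family (56.8%, 40.9 to 71.3) had 1 or more peaks named for them. The share over all protein-coding genes was 35.9%, below the Ube2 interval and inside the proteasome interval. The difference was 19.5 percentage points (-1.46 to 38.3). Without the genes on the sex chromosomes it was 23.8 (2.05 to 42.5), and when a gene was counted by any TSS within 1000 bp of a peak it was 6.20 (-11.8 to 24.9). A promoter peak was found at 13.7% of the proteasome genes and 18.9% of the Ube2 genes, beside 10.3% of all protein-coding genes. Only peaks named for the gene itself were counted. The promoters of *Psmc2*, *Psmd13* and *Psmb9* held a peak named for a neighbouring gene, while no Ube2 gene without a peak of its own did. The order of the families by this share is therefore not settled.

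The proteasome genes were counted by role, beside the 35.9% of all protein-coding genes with a peak, and with numbers too small to rank the roles. The assembly chaperones named *Psmg* had a peak named for them at 3 of 4 genes (*Psmg1*, *Psmg3* and *Psmg4*), and the activators at 3 of 5 (*Psme1*, *Psme2* and *Psme4*). None of the *Psmg* peaks lay in the promoter window. Those of *Psmg1* and *Psmg4* were inside introns of *Brwd1* and *Slc22a23*. That of *Psmg3*, at 5599 bp, lay 1326 bp from a TSS of *Tmem184a*. Of the genes named *Psmd*, which are mostly regulatory subunits but include the chaperone gene *Psmd9*, 7 of 14 had one. In the alpha ring 3 of 8 genes were bound, in the constitutive beta ring 2 of 7 and in the ATPase ring 1 of 6. None of the 4 beta genes of the immunoproteasome and thymoproteasome, *Psmb8* to *Psmb11*, was the nearest gene of a peak, nor was *Psmf1*, which encodes a proteasome inhibitor. Nearest-gene naming hid 3 further promoters, because the peak in the window was named for a neighbouring gene. A peak of score 8.76 named for *Dnajc2* lay -57 bp from the TSS of *Psmc2*, one of 6.57 named for *Sirt3* lay -448 bp from that of *Psmd13*, and one of 5.18 named for the antigen transporter gene *Tap1* lay -130 bp from that of *Psmb9*.

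In the Ube2 family, 4 of 5 ER-linked E2 genes were bound (*Ube2g1*, *Ube2g2*, *Ube2j2* and *Ube2k*, but not *Ube2j1*), with scores from 5.78 to 16.5, where 35.9% of all protein-coding genes had a peak. Of the E2 genes for ubiquitin-like proteins and those loaded by UBA6, 4 of 5 were bound as well. The NEDD8 enzymes *Ube2f* and *Ube2m* had 1 peak each, with scores of 9.16 at -9432 bp and 3.78 at -5863 bp. The UBE2D and UBE2E group had 6 peaks at 4 of 9 genes, all with scores between 3.39 and 4.98, that is at or below the lower quartile of the list. Of the E2 genes of DNA repair and the cell cycle, 1 of 5 was bound, namely *Ube2b*, with a score of 5.38 at 700 bp.

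Counted by peak, the Ube2 family lay nearer to the TSS than the list as a whole, but counted by gene its interval included the value of the list. The median distance, regardless of direction, was 4339 bp (181 to 9399) in the Ube2 family and 7757 bp (229 to 30548) in the proteasome family, beside 10438.5 bp for all peaks. The 2 family intervals overlap. Beyond 10 kb lay 7 of 29 Ube2 peaks (24.1%, 12.2 to 42.1) and 12 of 27 proteasome peaks (44.4%, 27.6 to 62.7), beside 50.9% of all peaks, which is above the Ube2 interval. The difference between the families was -20.3 percentage points (-42.1 to 4.33). For the nearest peak of each gene, the medians were 700 bp (57 to 5863) and 3133 bp (142 to 14704). The median over all bound genes, 1887.5 bp, lies inside both intervals.

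**Figure D2:**
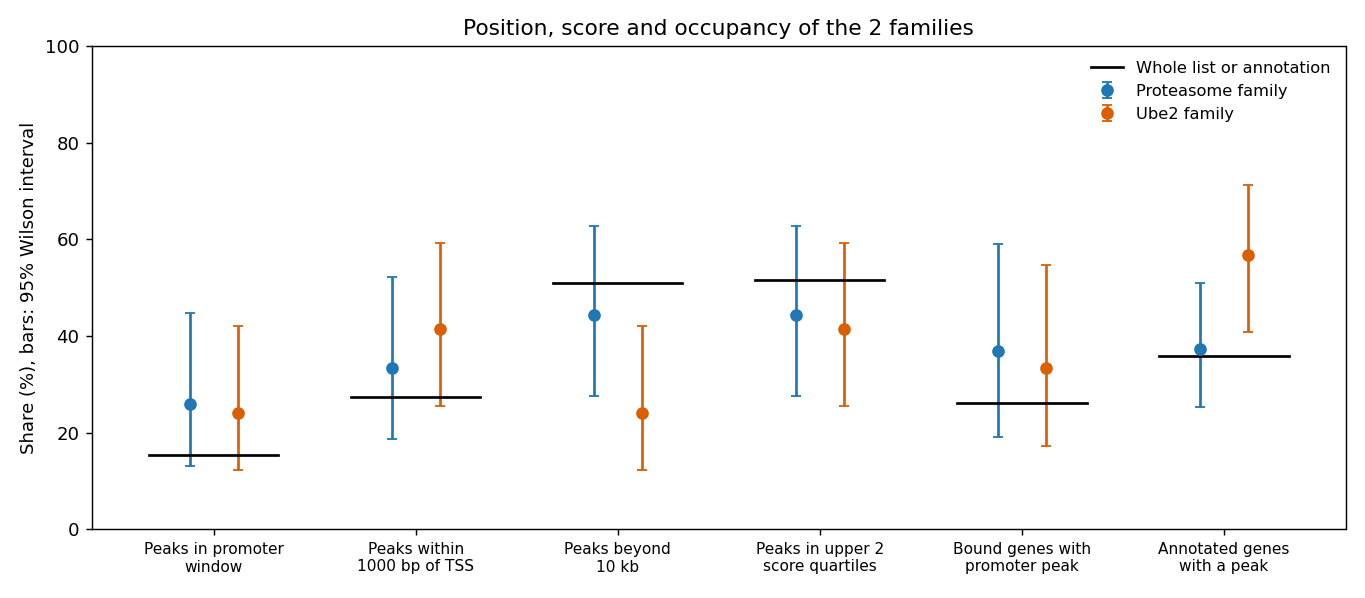
Shares of peaks or genes (y axis, %) with 95% Wilson intervals for the proteasome (blue) and Ube2 (orange) families; black lines give the share over all peaks, all bound genes or all protein-coding genes. The black line lies outside the Ube2 interval for peaks beyond 10 kb (50.9%) and for annotated genes with a peak (35.9%), and inside every proteasome interval.

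A few genes supplied most of the distant proteasome peaks. *Psma1*, an alpha subunit, had 4 peaks, from -16703 to -46757 bp, with scores of 11.4, 4.38, 4.78 and 5.58. *Psmg4*, an assembly chaperone, had 3 peaks from 35716 to 60265 bp with scores of 3.59, 13.3 and 11.6, all inside introns of *Slc22a23*, a transporter gene, and the last was the farthest peak of the family. To the *Psmg4* peaks at 50093 and 60265 bp a TSS of *Slc22a23* was closer, at 44448 and 34276 bp. *Psma6* had 1 peak inside *Prorp* at -30548 bp (score 10.2) and 1 at 44529 bp (score 12.3). Together these 3 genes held 9 of the 12 peaks beyond 10 kb. Outside the promoter window, 5 of 20 proteasome peaks and 12 of 22 Ube2 peaks lay within the body of the gene they were named for. Another protein-coding gene held 6 and 2. The share over all peaks was not computed, so these counts are a description only. Some of the peaks in their own gene lay just past the TSS, such as those of *Ube2e1* at 181 bp and *Psmd8* at 229 bp. The distant Ube2 peaks were spread over more genes. *Ube2h*, which works with the CTLH ligase complex, had 3 peaks, at -27863, -4339 and 27907 bp, with scores of 3.59, 5.78 and 8.56. The farthest, a peak named for *Ube2u* with a score of 4.78, was at -156920 bp inside *Ror1*, whose TSS was closer, at 76844 bp.

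The scores of the families overlapped, from 3.59 to 13.3 in the proteasome family and from 3.39 to 16.5 in the Ube2 family. The sources used here do not explain the scale of the score, so it serves only to rank peaks. The median was 5.98 in both families (4.78 to 9.36 in the proteasome family and 4.78 to 7.77 in the Ube2 family), beside 6.57 for all peaks. In the upper 2 quartiles of the list (a score of at least 6.57) were 12 of 27 proteasome peaks (44.4%) and 12 of 29 Ube2 peaks (41.4%), beside 51.6% of all peaks, and the difference was -3.07 percentage points (-27.2 to 21.5). Of these 12, 9 proteasome peaks and 8 Ube2 peaks lay outside the promoter window, beside 84.6% of all peaks with such scores. The 5 top proteasome peaks were those of *Psmd9*, a chaperone of the regulatory particle, and *Psmg4* (both 13.3), *Psma6* (12.3), *Psmg4* (11.6) and *Psma1* (11.4), and none of them was within 5 kb of the TSS. Among the 5 top Ube2 peaks were those of *Ube2j2* at -57 bp and *Ube2q1* at 11992 bp (both 16.5), *Ube2g1* at -25054 bp (10.4) and *Ube2z* at -30 bp (9.76). Focus ratios, the fraction of tags close to the peak centre, had medians of 0.697 and 0.670, beside 0.684 for all peaks.

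**Figure D3:**
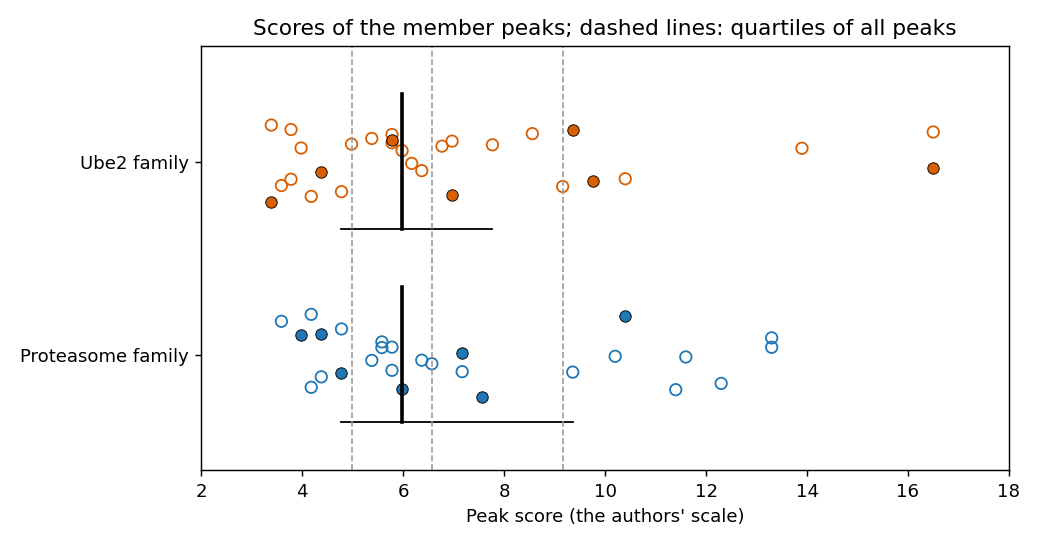
Peak scores (x axis, the authors' scale) of the proteasome and Ube2 families; filled points are promoter-window peaks and open points all others, thick bars are medians with their 95% intervals as thin lines, and points are spread vertically for visibility. The medians coincide at 5.98, below the dashed middle line at 6.57 that marks the median of all peaks.

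The share of member peaks with an NFI site lay near that of the list. A full site with at most 1 mismatch was found in the 200 bp around 2 of 27 proteasome peaks and 2 of 29 Ube2 peaks, beside 11.8% of all peaks. Both proteasome matches were at *Psma1*. The core site with at most 1 mismatch was present in 12 of 27 and 13 of 29, beside 51.8%, and the exact core site in 6 of 27 (22.2%, 10.6 to 40.8) and 4 of 29 (13.8%, 5.50 to 30.6), beside 13.4%. Of the 6 exact sites of the proteasome family printed above, 3 were at *Psma1*. Single arms were present in 19 of 27 and 15 of 29 peaks, beside 68.3%. In the promoter window, where 5.30% of all peaks held an exact core site, 0 of 14 member peaks did, and the upper limit of that share is 21.5%. Single arms there were found in 5 of 7 proteasome and 4 of 7 Ube2 peaks, beside 60.5%.

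Words of other factors were counted in the 14 promoter-window peaks, where 7 peaks a family leave wide intervals. The SP word GGGCGG, read on both strands like all the others, was found in 4 of 7 proteasome and 6 of 7 Ube2 peaks (58.4% of all promoter-window peaks). The ETS word occurred in 1 of 7 of each family (10.2%) and the NFY word CCAAT in 1 and 2 of 7 (27.3%). None of the 14 held a CRE palindrome (1.89%), the AP-1 word TGANTCA (3.12%) or the E-box words CAGCTG and CATCTG (19.8%).

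Before any adjustment, the families differed in the share of peaks that held the antioxidant response word (ARE). The word is TGAC, 3 bases of any kind and GC, which the transcription factors NFE2L1 and NFE2L2 recognize. NFE2L1 is known as a regulator of proteasome genes. The word was found in 5 of 27 proteasome peaks (18.5%, 8.18 to 36.7) and in 0 of 29 Ube2 peaks (upper limit 11.7%), beside 9.81% of all peaks, which lies inside both intervals. The difference was -18.5 percentage points (-36.7 to -2.91), for 1 of 8 words searched and without adjustment for that number. Within the peaks as deposited (173 bp), which leave out the *Psmd12* match, the count was 4 of 27 (14.8%) and the difference -14.8 (-32.5 to -0.118). Among the higher-scoring peaks alone (at least 6.57), it was -8.33 (-35.4 to 16.9). In the promoter window, *Psmc6* and *Psmd7* held the word, 2 of 7 proteasome peaks against 0 of 7 Ube2 peaks, beside 10% (244 of 2433) of promoter-window peaks. The other matches were away from proteasome promoters, in peaks of *Psmd1* at -5001 bp, *Psmg3* at 5599 bp and *Psmd12* at 32616 bp. A match describes the sequence and is not evidence of binding. The 5 matches are shown with 10 bp on either side, in the orientation in which the word reads, with the word in capitals.
Psmc6, chr14:45329597-45329605, minus strand: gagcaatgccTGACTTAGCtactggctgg
Psmd1, chr1:86059672-86059680, plus strand: gccttcctgcTGACCAGGCctgccaccta
Psmd12, chr11:107512045-107512053, plus strand: ctaaggttttTGACTTGGCtgcaaagcca
Psmd7, chr8:107588582-107588590, plus strand: cttaggctatTGACGAAGCttggcattga
Psmg3, chr5:139821255-139821263, minus strand: tccgggagctTGACCAAGCtccaccctgc

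The promoter-window peaks differed in base composition, a measure chosen after its values were seen and given as a description. GC content of the 200 bp ranged from 48 to 63% in the 7 proteasome peaks (median 54.5%) and from 63.5 to 81.5% in the 7 Ube2 peaks (median 75%), so that the highest proteasome value (*Psme2*) was just below the lowest Ube2 value (*Ube2d3*). The ranges overlapped over the peaks as deposited (46.8 to 63% and 62.4 to 80.3%) and with the window extended to 1000 bp downstream (48 to 70.5% and 62.5 to 83%). The median of all promoter-window peaks was 64%, with quartiles of 57 and 70.5%. CpG dinucleotides numbered 7 to 13 in the proteasome windows and 14 to 28 in the Ube2 windows, beside a median of 14 in all. RefSeq promoters of the families were compared as well, first for genes with and without peaks together. In these sequences (GRCm38, 250 bp before to 50 bp after the TSS), which matched 73 of the 88 annotated genes, the median GC content was 57.3% (54.3 to 61.7) for 43 proteasome genes and 63.5% (59.3 to 70.3) for 30 Ube2 genes, beside 56.3% for all. With a promoter-window peak, the medians were 57.3% for 5 proteasome genes and 68% for 5 Ube2 genes. Without one, they were 57% for 38 and 62% for 25.

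**Figure D4:**
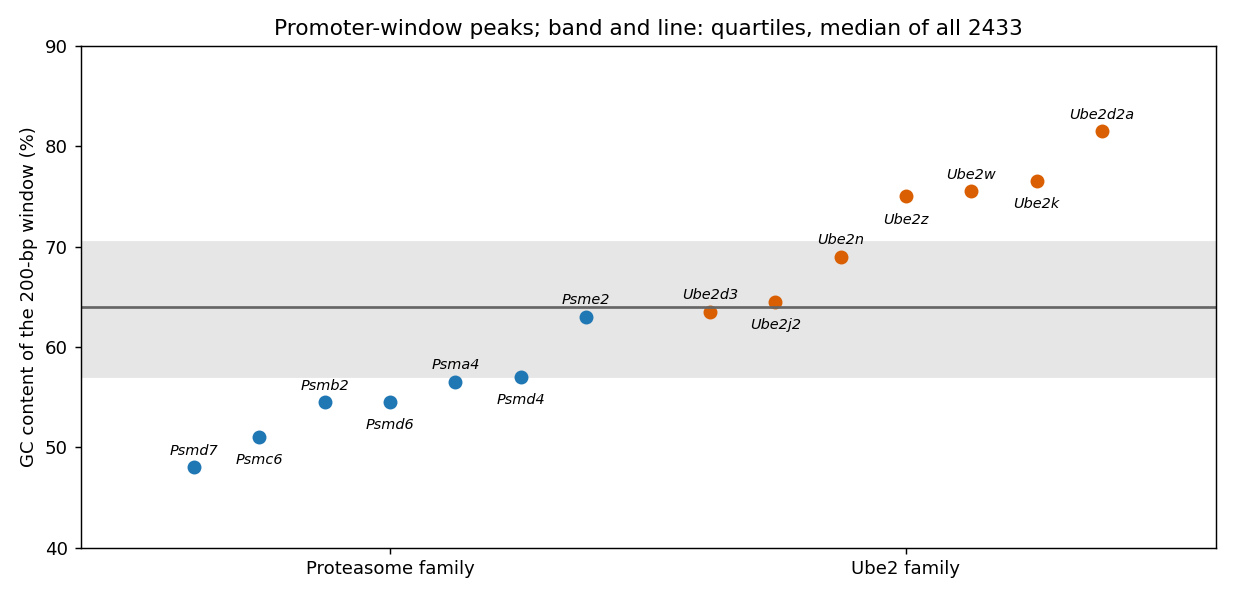
GC content (y axis, %) of the 200 bp around each promoter-window peak, 7 per family, ordered by value; the line and band are the median and quartiles of all 2433 promoter-window peaks. The proteasome points end at 63% and the Ube2 points start at 63.5%.

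The rest of the pathway was examined through lists of genes outside both families. Of 35 annotated genes in 4 lists, 18 were the nearest gene of a peak and 4 had a promoter peak, where the shares over all protein-coding genes were 35.9% and 10.3%. Among the ubiquitin genes, 3 of 4 were bound. Of the E1 genes, which activate ubiquitin and its relatives, 2 of 9 were bound: *Uba1*, the main ubiquitin E1, with a score of 4.58 at 288 bp, and *Uba7* with 7.77 at -3581 bp. Of the E2 genes not named Ube2, 3 of 5 were bound, led by *Cdc34* with a score of 14.3 at 1069 bp. Of the proteasome factors not named Psm, 10 of 17 were bound, with promoter peaks at *Uchl5*, a proteasomal deubiquitinase (8.37 at -101 bp), and at the shuttle genes *Ubqln1* (6.17 at -236 bp) and *Ubqln4* (6.97 at -73 bp). The ARE-binding factors themselves had peaks away from their promoter windows, *Nfe2l1* with a score of 7.17 at -1821 bp and *Nfe2l2* with 6.37 at 1124 bp and 9.56 at -63711 bp.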

How the data were processed

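NFIC ChIP-Seq of whole mouse pancreas (3 libraries, 1 input DNA) was analysed from the merged list of peaks deposited by the authors. The submitters' processing notes name BWA, Picard and MACS2 with mm10, the file header names HOMER annotation, and the study's methods name RUbioSeq+ and HOMER for peak calling of downloaded data. Which of these called the NFIC peaks is not settled, so neither is the meaning of the score. Thresholds and versions are not given in the sources used here. The score is the authors' own, on a scale not explained, and the deposited focus ratio is a fraction, taken here as the part of the tags near the peak centre. Distances to the TSS are in bp, as the authors deposited them. All peaks were 173 bp wide. Depth per library is unknown, so no count or normalization was computed.

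Family members, roles and pathway lists were chosen with earlier results of these data known. Every member gene could be named: full values were given for promoter-window peaks, the 5 highest-scoring peaks, the 3 genes with most peaks, and the nearest and farthest peak of each family. A few genes that this rule would name are not reported here. Shares have Wilson intervals, differences Newcombe intervals and medians order-statistic intervals. No p-value was computed, since peaks and genes are not replicates. Sequences came from RefSeq GRCm38.p6, whose distances equalled the authors' for 53 of 56 member peaks, and words were searched on both strands in 200 bp around the peak centre. Genes were matched by symbol or gene ID, and names on the pathway lists that are not annotated were left out. The steps were tested on simulated data. Python 3.11, numpy 2.4.6, pandas 2.3.3, scipy 1.17.1, pysam 0.24.0 and matplotlib 3.10.9 were used.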

Additional observations from a re-analysis of the deposited data

How the results depend on the processing

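No paired analysis was possible because the list has no values per library, and no library could be left out. Of 184 values from 16 alternatives, 166 stayed within the main interval. For numbers of peaks this meant within 1.5 times, and for the ARE difference an interval that still excluded 0. Some of the 166 could not move. All 56 member peaks are autosomal, and the genes left out under a stricter family rule had no peak, so both settings kept the same peaks. The promoter share difference, whose interval includes 0 throughout, changed sign in 4 of 10 alternatives by peak (-1.79 to 8.05, 5.11, 5.11 and 8.33 percentage points) and by gene (-3.51 to 5.01, 1.25, 1.25 and 6.36), namely with the window to 1000 or 100 bp downstream, the promoter-TSS class and the upper 2 quartiles; 4 settings on the NFI site, base composition and words were added after seeing the data. Keeping the upper 2 quartiles of score left 12 and 12 peaks (proteasome and Ube2), with median scores of 10.3 and 9.26, full NFI sites in 0% of each, annotated genes with a peak at 19.6% and 29.7%, and an ARE difference of -8.33 percentage points whose interval then included 0. Leaving out the sex chromosomes moved the difference in annotated genes with a peak to 23.8 percentage points, with an interval that then excluded 0. Counting any TSS within 1000 bp of a peak gave 23.5% and 29.7% of annotated genes. With 1 peak per gene, nearest or highest, the proteasome share with a full NFI site was 0%. With no mismatch allowed it was 0% in both families, and the core site with at most 1 mismatch gave 44.4% and 44.8%. The cause of these shifts was not tested. Numbers of peaks limit the precision: with 27 and 29 peaks, the interval for the difference in promoter share ran from -24.0 to 20.2 percentage points.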
